A study of Homo sapiens with 53 samples.

Results

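The regions described here are narrow peaks of CTCF that also carried MBD3 in solvent-treated HEK293T cells, a human embryonic kidney line. They were chosen from 2 deposited peak lists, CTCF and MBD3 under DMSO. Rows of the CTCF list that overlapped or touched were merged, and merged peaks on chromosomes 1 to 22 and X were kept where they were under 500 bp wide and overlapped an MBD3 row by 1 bp or more. The rule found 18405 regions. They make up 18.7% of the 98272 merged CTCF peaks on these chromosomes, 26.3% of the 70064 narrow ones and 50.4% of the 36505 that overlapped MBD3. The CTCF and MBD3 values under DMSO chose the regions, so these values are given as a description only.

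Chromatin immunoprecipitation with paired-end sequencing was carried out on parental HEK293T cells with antibodies against CTCF or MBD3. Edited lines derived from them, titled TET1_Flag, TET2_Flag and TET3_Flag, were precipitated with an antibody against Flag; what drives the tagged proteins is not given in the sources used here. Treatment lasted 72 h in every group and was with BPK-25, dosed at 30 µM, or with DMSO alone as solvent control. The 53 samples fall into 18 groups, of which 10 are immunoprecipitates with 3 labelled replicates each, except TET2 under DMSO with 2, and the others are sonicated input. Each immunoprecipitate group has 1 peak list, taken as called on pooled replicates, so no value below has a spread between replicates and no test between treatments or between sets of peaks was possible. Shares carry a 95% interval (Clopper-Pearson, exact) that reflects counting error only. Neighbouring peaks are not independent, and 38.1% of the regions had another CTCF peak within 1000 bp, so these intervals are too narrow for a comparison of conditions.

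CTCF is a zinc-finger protein that binds a long DNA motif and, with cohesin, holds the ends of chromatin loops and marks insulators. MBD3 is a core subunit of NuRD, a complex that couples nucleosome remodelling to histone deacetylation and that is known at active promoters and enhancers as well as at repressed genes. The TET proteins are dioxygenases that oxidise 5-methylcytosine, a step towards loss of DNA methylation. By its title, the series concerns NuRD in the chromatin around CTCF sites.

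The depth of each list is given by its genome background, the lowest local background at any of its summits, which was 3.68 fragments for CTCF and 3.21 for MBD3 under DMSO, and 2.58 and 2.57 under BPK-25. In the TET lists it was 1.05 to 1.85 fragments. The lowest pileup that was called was 2.99 to 3.12 times the genome background in the 4 CTCF and MBD3 lists and 4.72 to 7.64 times in the 6 TET lists. The TET lists were therefore less able to record a weak site. Levels below are summit pileups, in fragments, divided by the genome background of the list, so that a level of 10 means 10 times the background of that list. Fold enrichments are the authors' own values, the pileup over the local background at the summit.

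Most of the regions were weak in both lists. The CTCF level had a median of 9.78 (quartiles 6.25 and 22.5) and the MBD3 level a median of 9.65 (6.23 and 14.9). The median fold enrichment was 4.85 for CTCF (3.33 and 11.4) and 4.72 for MBD3 (3.43 and 7.19). The CTCF range was far wider, with fold enrichments of up to 439 for CTCF and up to 102 for MBD3. The level of MBD3 exceeded that of CTCF at 9244 regions, or 50.2%. At the others the CTCF level was equal or higher. Each level came from its own antibody and was read at its own summit, so this comparison does not rank the proteins at a site.

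**Figure D1:**
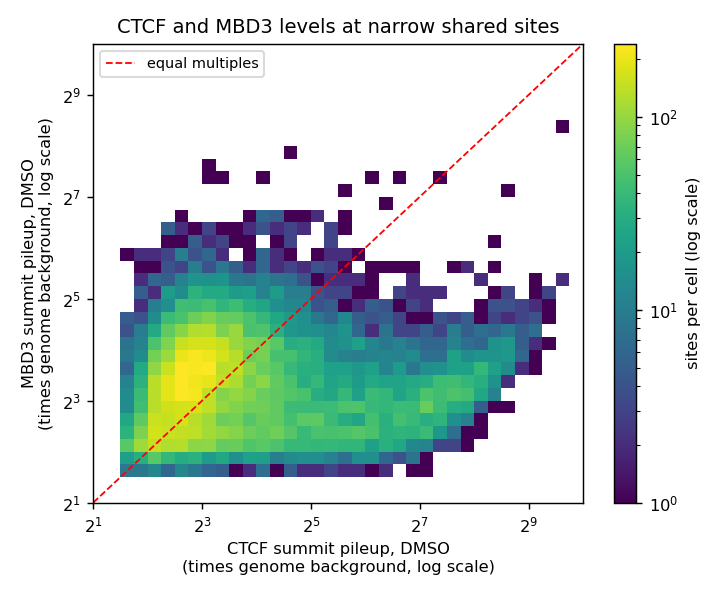
Regions counted by their CTCF level (horizontal) and MBD3 level (vertical) under DMSO, both as multiples of the genome background on log axes; colour gives the number of regions per cell and the dashed line equal levels. The quartiles of the regions lie at 6.25 and 22.5 for CTCF and at 6.23 and 14.9 for MBD3, with a tail to high CTCF levels; 1 region lies outside the range drawn.

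The form of the sites differed with the strength of CTCF. All CTCF peaks on chromosomes 1 to 22 and X were divided into deciles by -log10 q, the first being the weakest. By number most regions were weak, with 5139 in the first decile, 3084 in the second and 776 in the strongest, where few CTCF peaks are under 500 bp. As a share of the narrow CTCF peaks of a decile they were highest at both ends, at 54.2% in the first and 65.9% in the strongest against 14.5% in the seventh. Between the first and the strongest decile the median CTCF level of the regions went from 5.16 to 247, while the median MBD3 level stayed between 7.16 and 11.5 in all 10 deciles. In the first decile the MBD3 peak was usually the larger feature: its median width was 531 bp against 233 bp for CTCF, it was the wider in 88.9% of regions, and the summits lay a median of 91 bp apart. In the strongest decile the order was the opposite. There the MBD3 peak had a median width of 226 bp against 465 bp for CTCF, it was the wider in 6.44% of regions, and the summits were a median of 13 bp apart.

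The regions thus span 2 forms with all stages between them, a weak CTCF rise within a wider MBD3 peak and a small MBD3 peak centred on a strong CTCF summit. Over all regions the CTCF peak lay wholly inside the MBD3 peak in 45.5%, the CTCF summit lay inside it in 92.2%, and the summits were within 100 bp of each other in 65.7%. A single CTCF summit was called in 93.7%. The 18405 regions shared 17351 MBD3 peaks, of which 5.55% held 2 or more of them and the fullest 5. MBD3 peaks of 1000 bp or more held 17.2% of the regions.

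The 5 regions of highest CTCF -log10 q show the second form. Chromosome 5, 137687892 to 137688372, had a fold enrichment of 411 for CTCF and 19.2 for MBD3 under DMSO. The highest CTCF fold enrichment of all the regions, 439, was on chromosome 11, 111472597 to 111473087, beside 24.2 for MBD3. The values were 304 and 14.3 on chromosome 6, 70506686 to 70507179, then 315 and 13.2 on chromosome 1, 32254843 to 32255302. On chromosome 17, 18979531 to 18980002, they were 196 and 10.1, with a local CTCF background of 3.58 times the genome background against 1.22 to 2.03 times at the other 4. At all 5 the MBD3 summit lay within 21 bp of the CTCF summit. Coordinates are hg19 and 1-based throughout, and gene annotation of that build was not used here.

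The regions of highest MBD3 -log10 q, among those with summits within 100 bp, hold CTCF at very different levels. Chromosome 2, 201374680 to 201375122, was strong in both lists, with fold enrichments of 238 for CTCF and 86.1 for MBD3. The values were 26.1 and 40.2 on chromosome 15, 102501589 to 102502050, and 10.0 and 38.1 on chromosome 19, 12893237 to 12893493. CTCF was below the median of the regions at chromosome 1, 7765114 to 7765427, with 3.60 against 49.1 for MBD3, and at chromosome 5, 63986720 to 63987039, with 4.10 against 49.7. The MBD3 peaks at these 5 regions were 700 to 1058 bp wide, each wider than the CTCF peak.

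Among CTCF peaks with MBD3 at the width limit, median CTCF fold enrichment was 26.4 in the 508 of 490 to 499 bp and 31.1 in the 473 of 500 to 509 bp. The median CTCF level was 48.1 and 61.9, and the MBD3 level 10.6 and 10.9. The strongest region of 499 bp, chromosome 9, 95922124 to 95922622, had fold enrichments of 262 for CTCF and 11.4 for MBD3. The next in strength at that width were chromosome 6, 80579256 to 80579754, with 241 and 12.9, and chromosome 2, 128990998 to 128991496, with 138 and 8.33. Just outside, at 500 bp, the values were 273 and 9.79 on chromosome 11, 2909535 to 2910034, 151 and 10.7 on chromosome 19, 10138342 to 10138841, and 189 and 5.26 on chromosome 3, 137787337 to 137787836. At the other limit, 254 regions overlapped their MBD3 peak by 50 bp or less, and 4843 narrow CTCF peaks had an MBD3 peak within 1000 bp but none overlapping. Their CTCF fold enrichments had medians of 4.07 and 5.67.

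Other CTCF peaks lay near the regions more often than near narrow CTCF peaks without MBD3. Another CTCF peak was within 1000 bp of 38.1% of them (95% interval 37.4 to 38.8), against 10.3% (10.0 to 10.5) of narrow CTCF peaks without MBD3 and 29.5% (28.8 to 30.1) of wide CTCF peaks with MBD3. The median gap to the nearest CTCF peak was 2165 bp, against 8237 bp and 3208 bp. A wide CTCF peak stood within 1000 bp of 15.2% of the regions, against 4.01% of narrow CTCF peaks without MBD3. The median local CTCF background was also higher, at 1.61 times the genome background against 1.26 times for narrow peaks without MBD3; its part in these differences was not tested.

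Chromosomes differed in how often a narrow CTCF peak carried MBD3. The share was highest on chromosome 19, with 1205 of 2672 narrow peaks or 45.1% (43.2 to 47.0), followed by chromosome 17 with 39.1% (37.3 to 40.8), chromosome 16 with 35.3% (33.4 to 37.2) and chromosome 22 with 34.7% (32.3 to 37.1). The intervals of chromosomes 16 and 22 overlap. All other chromosomes lay between 19.3% and 28.6%, with chromosomes 3, 13 and 18 the lowest at 19.3%, 19.7% and 20.4% and with overlapping intervals. Chromosomes 16, 17, 19 and 22 are known for a high gene density, and chromosomes 13 and 18 for a low one. No gene annotation was used, and the part of gene density in these shares was not tested. The median CTCF fold enrichment of the regions lay between 4.20 on chromosome X, where the share was 21.1%, and 5.51 on chromosome 18, and was 4.53 on chromosome 19.

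**Figure D2:**
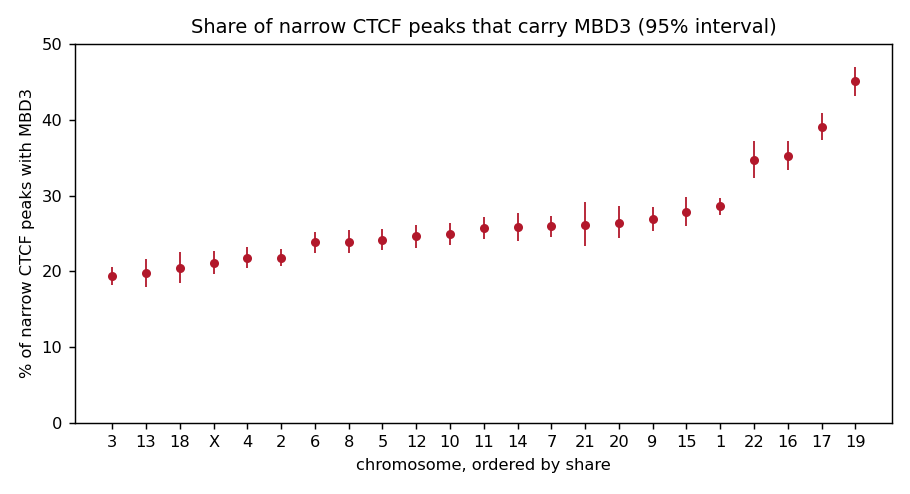
Percentage of narrow CTCF peaks that overlapped an MBD3 peak under DMSO on each chromosome, ordered by that share, with 95% Clopper-Pearson intervals as bars. Chromosome 19 is highest at 45.1%, and chromosomes 22, 16 and 17 stand above the remaining ones, which lie between 19.3% and 28.6%.

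Most of the regions overlapped called CTCF and MBD3 peaks under BPK-25, in lists that were much longer than under DMSO. The CTCF list held 98272 merged peaks on chromosomes 1 to 22 and X under DMSO and 244084 under BPK-25, and the MBD3 list 81784 and 241851; the part of list length in the shares below was not tested. A BPK-25 CTCF peak overlapped 13191 regions, or 71.7% (71.0 to 72.3), against a background of 39.5% over all DMSO CTCF peaks. The share was 16.6% (16.3 to 17.0) in narrow CTCF peaks without MBD3 and 82.2% (81.7 to 82.8) in wide CTCF peaks with MBD3, whose greater width gives more room for an overlap. A BPK-25 MBD3 peak overlapped 13354 regions, or 72.6% (71.9 to 73.2), against a background of 40.5%. The labels give the CTCF and MBD3 precipitates of a treatment 1 common set of inputs, so their lists share controls. At 9346 regions whose BPK-25 CTCF and MBD3 summits lay within 100 bp of each other, Spearman's rho between the 2 levels was 0.83. The log2 ratio of MBD3 to CTCF level there had a median of 0.006 (quartiles -0.21 and 0.24) under BPK-25. Under DMSO it was 0.27 (-0.70 and 0.92). Both BPK-25 lists overlapped 12260 regions, so their shares are not 2 separate results. Neither list overlapped 4120 regions, which were stronger in CTCF and weaker in MBD3 than the regions that both overlapped: the median CTCF fold enrichment was 9.57 against 4.23, and the median MBD3 level 7.16 against 10.9.

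The share under BPK-25 went down with CTCF strength and then up again in the strongest decile. A BPK-25 CTCF peak overlapped 84.8% (83.8 to 85.8) of the regions in the first decile, 69.5% (67.1 to 71.9) in the fifth, 34.9% (31.8 to 38.0) in the ninth and 51.8% (48.2 to 55.4) in the strongest. Narrow CTCF peaks without MBD3 had 43.1%, 14.4%, 6.76% and 15.4% in the same deciles, and wide peaks with MBD3 95.9%, 94.7%, 62.2% and 81.6%. The intervals of the 3 sets did not overlap in any of these 4 deciles. At matched CTCF strength the regions thus lay between the other sets. Over all CTCF peaks the share was 66.7% in the first decile and 70.9% in the strongest, where wide peaks are the majority, so in the strongest decile the regions were below that figure.

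Within the regions the share followed the MBD3 level, and most steeply where CTCF was strong. Among regions with a CTCF level of 64 or more, a BPK-25 CTCF peak overlapped 20.6% (17.0 to 24.6) of the 456 with an MBD3 level under 6, 34.6% (31.1 to 38.2) of those at 6 to 9, 48.9% (45.3 to 52.5) at 9 to 15, 77.4% (72.3 to 82.0) at 15 to 30 and 93.9% (83.1 to 98.7) of the 49 at 30 or more. Among regions with a CTCF level under 8 the shares at the ends of the same MBD3 range were 79.1% (77.2 to 80.9) and 89.8% (84.8 to 93.5). At an MBD3 level of 30 or more the intervals of the strongest and the weakest CTCF class overlapped. At an MBD3 level under 6 they were far apart.

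**Figure D3:**
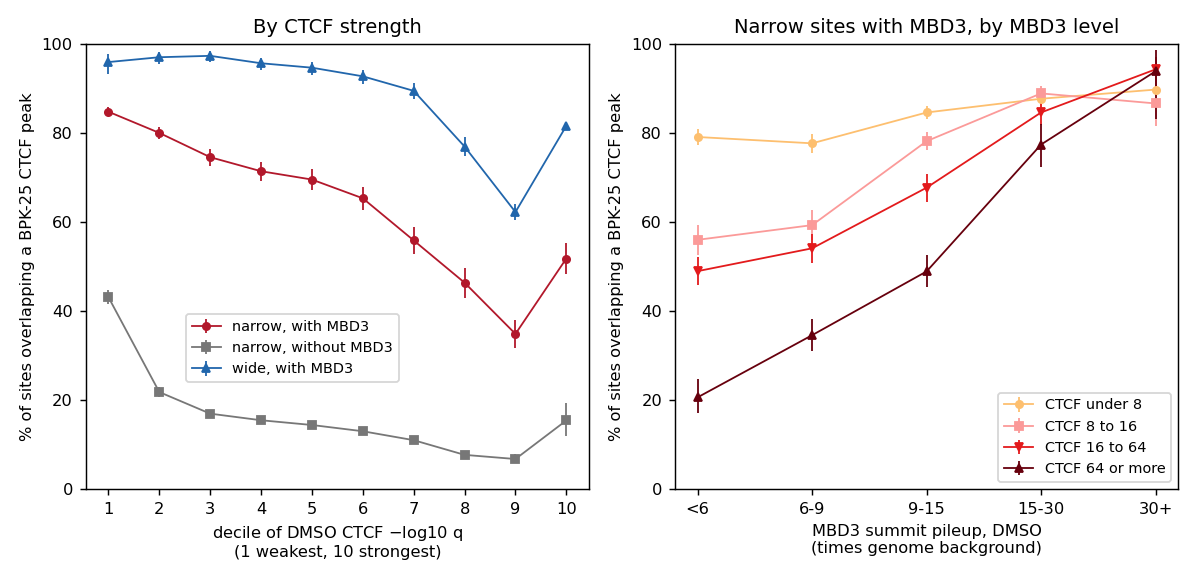
Percentage of sites that overlapped a BPK-25 CTCF peak, by decile of DMSO CTCF strength for 3 sets of CTCF peaks (left) and by MBD3 level for 4 classes of CTCF level within the narrow sites with MBD3 (right), with 95% Clopper-Pearson intervals. On the left the narrow sites with MBD3 lie between the other sets in every decile; on the right the line for a CTCF level of 64 or more goes from 20.6% to 93.9%, and that for a level under 8 from 79.1% to 89.8%.

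The level of what was called under BPK-25 bore little relation to the CTCF level under DMSO. At regions with a BPK-25 CTCF peak, its median level was 11.3 in the first decile and 9.31 in the strongest, where the same regions had 5.16 and 286 under DMSO. Across these 13191 regions Spearman's rho between the CTCF levels of the treatments was -0.02, a description of pooled lists of different depth. The BPK-25 summits lay a median of 59 bp from the DMSO CTCF summits, with an upper quartile of 178 bp. Some pairs were thus read at different positions, whereas the rho of 0.83 was limited to summits within 100 bp. The median BPK-25 MBD3 level at the regions with such a peak was 11.3 in the first decile and 9.74 in the strongest, close to the CTCF values. Levels at regions without a BPK-25 peak are not known, except that no summit was called there.

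**Figure D4:**
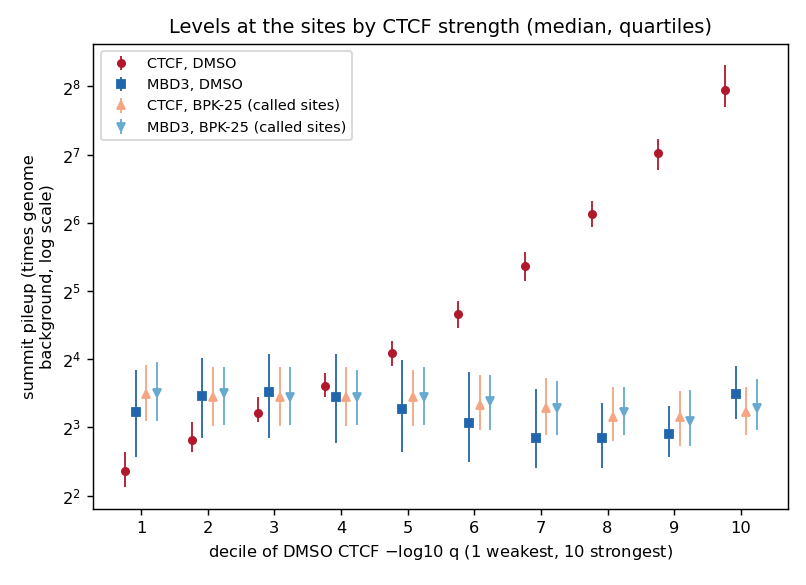
Median level with quartiles, as multiples of the genome background on a log axis, of CTCF and MBD3 under DMSO at all regions and under BPK-25 at the regions with a called peak, by decile of DMSO CTCF strength. CTCF under DMSO goes from 5.16 to 247, while the other 3 series stay between 7.16 and 11.5.

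The strongest regions show these levels singly. At chromosome 5, 137687892 to 137688372, the CTCF level was 841 under DMSO and 22.9 under BPK-25, and the MBD3 level 39.5 and 18.3. At chromosome 11, 111472597 to 111473087, CTCF had 655 and 17.1 and MBD3 37.0 and 26.1. CTCF had 700 and 20.6 on chromosome 6 at 70506686, 689 and 19.0 on chromosome 1 at 32254843, and 753 and 27.9 on chromosome 17 at 18979531. The MBD3 levels under BPK-25 at these 3 were 17.9, 23.0 and 31.9.

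The regions strongest in MBD3 under DMSO also had BPK-25 peaks in both lists. On chromosome 2, 201374680 to 201375122, the MBD3 level was 148 under DMSO and 14.0 under BPK-25, and on chromosome 15, 102501589 to 102502050, it was 122 and 26.1. Where CTCF was weak, the DMSO CTCF level was 5.43 on chromosome 1 at 7765114 and 5.70 on chromosome 5 at 63986720. The overlapping BPK-25 CTCF peaks had levels of 15.1 and 7.76 at their own summits. These summits lay 203 and 683 bp from the DMSO summits, so the levels of the treatments were read at different positions. With 1 list per treatment these differences have no replicate check.

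Of the 4120 regions that neither list overlapped, 2427, or 13.2% of all regions, had no CTCF or MBD3 peak within 1000 bp under BPK-25. Their median CTCF fold enrichment under DMSO was 14.3, against 4.85 over all regions, and their median MBD3 level 6.85, against 9.65. The strongest was chromosome 2, 172430527 to 172430975, with a CTCF fold enrichment of 225, an MBD3 value of 7.07 and no peak in any other list. TET3 under BPK-25 overlapped 15.2% of the 2427 regions, against 8.94% of all regions and 7.57% of all CTCF peaks. The part of CTCF strength in this share was not tested. The next 4 by CTCF strength each overlapped such a peak. These 4 lie in the strongest CTCF decile, where TET3 under BPK-25 overlapped 46.1% of the regions and 37.8% of all CTCF peaks. They were chromosome 1, 225959956 to 225960424, with a CTCF value of 105 under DMSO and a TET3 value of 4.69 under BPK-25, chromosome 5, 38441777 to 38442253, with 156 and 10.6, chromosome 2, 98423157 to 98423587, with 133 and 11.2, and chromosome 12, 69684707 to 69685200, with 196 and 6.80. At these 4 the TET3 summit lay 6 to 21 bp from the DMSO CTCF summit.

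TET proteins under DMSO were found at 3440 regions, or 18.7%. TET3 overlapped 2994 of the regions, 16.3% (15.7 to 16.8), against a background of 8.07%; TET1 overlapped 1316, 7.15% (6.78 to 7.53), against 4.03%; and TET2 overlapped 301, 1.64% (1.46 to 1.83), against 0.832%. In narrow CTCF peaks without MBD3 the shares were 0.590% (0.526 to 0.660) for TET3, 0.372% (0.321 to 0.428) for TET1 and 0.0348% (0.0207 to 0.0551) for TET2. In wide CTCF peaks with MBD3 they were 24.3% (23.6 to 24.9), 12.6% (12.2 to 13.1) and 2.65% (2.42 to 2.90). The 3 TET lists come from different lines with inputs of their own. TET3 alone was at 2047 regions, TET1 with TET3 and without TET2 at 692, all 3 at 211, and TET1 alone at 400. Shares over all CTCF peaks were taken for each TET list singly, so the 3440 regions and these combinations have no background here.

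The TET regions had more MBD3 than the rest. The median MBD3 level was 13.4 at regions with TET3 under DMSO only and 8.72 at the 14646 without TET3 in either treatment. The median CTCF level was 10.0 and 9.23 there, and the median CTCF fold enrichment 4.20 and 4.88. At regions with all 3 TET proteins under DMSO the median MBD3 level was 17.1 and the median CTCF level 13.9. The median local CTCF background was higher too, at 2.00, 2.62 and 1.57 times the genome background for TET3 under DMSO only, all 3 TET proteins and neither; its part was not tested. TET3 summits under DMSO lay a median of 105 bp from the CTCF summit. The share of regions with TET3 under DMSO was 5.16% (4.53 to 5.85) where the MBD3 peak was under 250 bp and 24.8% (23.6 to 26.1) where it was 500 to 1000 bp, and by CTCF decile it lay between 7.41% in the ninth and 21.7% in the third.

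Under BPK-25, TET3 overlapped 1646 regions, or 8.94% (8.53 to 9.36), against a background of 7.57%, so over all regions the share was near the background. TET1 overlapped 48 regions, 0.261% (0.192 to 0.346), against 0.189%, and TET2 overlapped 52, 0.283% (0.211 to 0.370), against 0.168%. In narrow CTCF peaks without MBD3 the BPK-25 shares were 1.31% (1.22 to 1.41) for TET3, 0.0136% for TET1 and 0.0213% for TET2. In wide CTCF peaks with MBD3 they were 23.7% (23.1 to 24.3), 0.680% and 0.552%. On chromosomes 1 to 22 and X the whole TET lists also held fewer merged peaks under BPK-25. TET1 had 5900 under DMSO and 414 under BPK-25, TET2 had 1211 and 437, and TET3 had 14039 and 13249. TET1 was called in both treatments at 42 regions and TET2 at 40. Genome background in fragments, DMSO first, was 1.85 against 1.75 in the TET1 lists, 1.25 against 1.05 in those of TET2 and 1.70 against 1.65 in those of TET3, so the TET lists of both treatments differ somewhat in depth; the parts of depth and list length were not tested.

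TET3 was called in both treatments at 881 regions, a count without a background over all CTCF peaks here. The share of regions with TET3 followed CTCF strength differently in each treatment. In the first decile of CTCF strength 771 of the 5139 regions overlapped TET3 under DMSO, and 284, or 5.53% (4.92 to 6.19), under BPK-25. Over all CTCF peaks of the first decile the shares were 9.06% under DMSO and 3.46% under BPK-25. In the strongest decile the shares of the regions were 13.3% (11.0 to 15.9) under DMSO and 46.1% (42.6 to 49.7) under BPK-25. The DMSO share there was below the 16.4% of all CTCF peaks and the 18.9% of wide peaks with MBD3. It was above the 6.97% of narrow CTCF peaks without MBD3. In the same decile TET3 under BPK-25 was at 35.3% (30.6 to 40.2) of narrow CTCF peaks without MBD3. It was at 37.9% (36.8 to 39.0) of wide peaks with MBD3 and 37.8% of all CTCF peaks. Under BPK-25 the interval of the regions did not overlap those of the other sets, but no test of the difference was possible. In the ninth decile the BPK-25 shares of the regions, narrow peaks without MBD3 and wide peaks with MBD3 were 14.1% (11.9 to 16.5), 11.1% (9.89 to 12.4) and 15.6% (14.3 to 16.9). The interval of the regions overlapped that of either set.

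**Figure D5:**
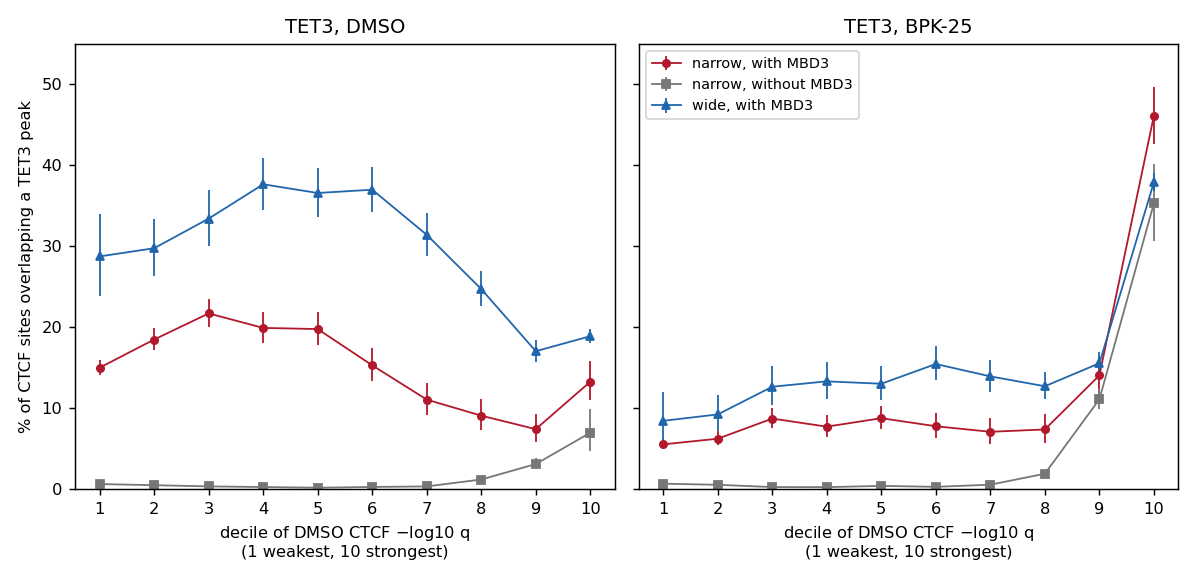
Percentage of CTCF sites that overlapped a TET3 peak under DMSO (left) and BPK-25 (right), by decile of DMSO CTCF strength, for narrow sites with MBD3, narrow sites without MBD3 and wide sites with MBD3, with 95% Clopper-Pearson intervals. For the narrow sites with MBD3 the share in the strongest decile is 13.3% under DMSO and 46.1% under BPK-25.

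Many of the 765 regions with TET3 under BPK-25 only were strong CTCF sites. Others came from the weakest deciles, which hold the most regions. The median CTCF fold enrichment of the 765 under DMSO was 47.4. It was 4.20 at the 2113 regions with TET3 under DMSO only and 4.63 at the 881 with TET3 in both. The counts of 765 and 2113 also have no background over all CTCF peaks here. The strongest decile, with 776 regions, held 289 of the 765, or 37.8%. The ninth held 105 among its 918 regions, the first 89 among 5139 and the second 62 among 3084, with 29 to 44 in each of the other deciles. TET3 summits of the 765 lay a median of 25 bp from the CTCF summit, against 113 bp for the regions with TET3 under DMSO only. For all sites with a BPK-25 TET3 peak this distance was 48 bp in the regions. It was 20.5 bp in narrow CTCF peaks without MBD3 and 20 bp in wide peaks with MBD3. Fold enrichment for TET3 was low in the regions with TET3 under BPK-25 only, under DMSO only and in both, with medians of 4.49 to 5.29. Among strongest-decile regions, TET3 under BPK-25 was found at 43.3% (38.4 to 48.3) of the 402 with a BPK-25 CTCF peak and at 49.2% (44.0 to 54.4) of the 374 without one, and these intervals overlap.

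A small group was high in the TET lists, and its size has no background over all CTCF peaks here. At 32 regions all 3 TET proteins were called under BPK-25, with median fold enrichments of 7.18 for TET1, 9.77 for TET2 and 14.9 for TET3. Nearly all of them had TET peaks under DMSO as well, 31 with TET1, 29 with TET2 and 32 with TET3, with medians of 8.98, 7.06 and 10.1. Under DMSO the median fold enrichment there was 3.85 for CTCF and 5.34 for MBD3, against 4.85 and 4.72 over all regions. The median DMSO level was 11.5 for CTCF and 15.4 for MBD3, against 9.78 and 9.65 over all regions. Under BPK-25 CTCF was called at 9 of the 32 and MBD3 at 10. The median local CTCF background was 2.56 times the genome background, against 1.61 times over all regions, and its part was not tested.

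Only 8 regions overlapped a peak in all 10 lists, and the 5 of highest CTCF -log10 q illustrate them. On chromosome 17, 66015981 to 66016389, fold enrichments under DMSO were 20.9 for CTCF, 8.78 for MBD3 and 12.6 for TET3. Under BPK-25 they were 4.09, 5.80 and 26.0 there, the last being the highest BPK-25 TET3 value among all the regions. In the same order, chromosome 17, 8089872 to 8090289, gave 25.9, 4.03 and 9.59 with DMSO, then 3.78, 3.83 and 17.9 with BPK-25. At chromosome 19, 4723722 to 4724182, the DMSO values were 30.8, 7.76 and 18.8 and the BPK-25 values 5.19, 3.99 and 12.3. TET3 was about equal between treatments on chromosome 17, 73031091 to 73031507, at 14.3 and 14.3, and was 7.87 and 12.1 on chromosome 5, 180524546 to 180524789.

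The other 4 regions of highest BPK-25 TET3 fold enrichment had no CTCF or MBD3 peak under BPK-25. Chromosome 17, 19091362 to 19091538, had a TET3 value of 12.3 under DMSO and 24.2 under BPK-25, in a local CTCF background of 11.7 times the genome background. The TET3 values were 6.23 and 23.0 on chromosome 7, 1560311 to 1560601, 14.9 and 21.6 on chromosome 1, 153643407 to 153643888, and 12.0 and 20.9 on chromosome 16, 57333536 to 57334012. CTCF under DMSO was 2.80, 5.13, 11.7 and 4.31 at these 4. On chromosome 16 the BPK-25 TET3 summit lay 703 bp from the CTCF summit, outside the CTCF peak.

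Of the 10 lists, 4 was the most frequent number at a region, with 10187 regions or 55.3%. CTCF and MBD3 under DMSO alone, the 2 lists that define the regions, held 3122, or 17.0%. Peaks in 6 or more lists were found at 711 regions with 6, 241 with 7, 101 with 8, 9 with 9 and 8 with 10. The number of lists has no background over all CTCF peaks here, so these counts describe the regions only. Local CTCF background of 20 or more times the genome background, was found at 8 regions, or 0.0435%.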

How the data were processed

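The 10 peak lists were analysed as the authors deposited them. Per the submitters' processing notes the tools were MACS2 2.1.2, Bowtie2 2.3.4, bedtools 2.25.0, SAMtools 1.9 and FastQC 0.11.7, with the build hg19. Their roles and settings were not stated in those notes. Each list gives, per summit, a fold enrichment (a ratio of pileup to local background), a -log10 p-value, a -log10 q-value and the offset of the summit, all as deposited by the authors. The lowest -log10 q was 1.30 to 1.31. The regions, the rule for naming them and the comparisons were chosen with earlier results of these data known.

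Merged peaks kept the values of their summit of highest -log10 q. Where a region overlapped several peaks of a list, that of highest -log10 q was used. Pileup and local background were solved from fold enrichment, taken as pileup plus 1 over background plus 1, and the Poisson p; in each list 100% of pileups under 200 were whole to a tolerance of 0.02. The solution, merging and overlap were tested on simulated data (Python 3.11.15, numpy 2.4.6, pandas 2.3.3, scipy 1.17.1). Lists were compared by an overlap of 1 bp. The deposited TET2 list under DMSO names 3 replicates where the labels used here give 2. Total reads per library were not used here. Regions were named by rank of -log10 q in 5 classes of 5, or of TET3 fold enrichment, leaving out local background of 20 or more times the genome background, with 3 on each side of the width limit. Deciles, levels by class, chromosomes and neighbours were not part of that rule. No hg19 sequence was used, so motifs and sequences are not reported.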

Additional observations from a re-analysis of the deposited data

How the results depend on the processing

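No paired analysis was possible because each list pools its replicates and no value comes from a test; for the same reason no replicate could be left out. Of 48 alternative values, 16 stayed within the interval (or, for the number of regions, within 1.5 times). The number of regions, 18405, was 8618 under 300 bp, 12103 with the summit of any overlapping MBD3 peak within 100 bp of that of CTCF (12098 by the strongest such peak alone) and 10405 at a CTCF -log10 q of at least 10. In the following, shares that moved are given in the order BPK-25 CTCF, BPK-25 MBD3, then TET1, TET2 and TET3 under DMSO and TET3 under BPK-25. Counting only peaks of the other list at a -log10 q of at least 5 they were 59.2%, 60.5%, 2.61%, 0.837%, 7.75% and 5.20%. With at least 50% of the region covered they were 63.7%, 64.8%, 4.96%, 0.935%, 11.2% and 4.52%, and for TET1 and TET2 under BPK-25 0.125% and 0.147%. For regions with summits within 100 bp they were 69.3%, 70.7%, 7.62%, 1.85%, 15.6% and 9.78%. For regions with a CTCF -log10 q of at least 10 they were 62.8%, 64.7%, 8.49% for TET1, 2.08% for TET2 and 11.4% for TET3 under BPK-25. Leaving out regions of high local background moved none of the 8 shares. An alternative chosen after seeing the data left out regions with another CTCF peak within 1000 bp: BPK-25 CTCF was 66.2%, BPK-25 MBD3 67.3%, TET3 under DMSO 15.5% and TET3 under BPK-25 9.99%. Beyond what each setting removes, the cause was not tested. At the depth of the TET lists, a region without a TET peak is one where TET was not called, and its TET level was not measured.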
